A study of Mus musculus with 34 samples.

Results

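Cumulus cells (CCs) from mice fed a high-fat diet (HFD) or chow diet (CD) for 16 weeks were compared by RNA-seq across all genes. The 13 libraries of this comparison, 7 of HFD and 6 of CD, were taken by their diet and time labels from the 34 libraries of the series, and the 3 libraries of mice that gained little weight on HFD were left out of the tests. All were C57BL/6J females that entered the protocol at 8 weeks of age. The sample annotation gives 11% of energy as fat for CD and 58% for HFD, and the study's text states slightly different shares. All mice were superovulated before collection, so the control group carried that hormonal treatment too. Each library was made from a pool of about 50 CCs with the Smart-seq2 method, which copies polyadenylated RNA from few cells and amplifies it by PCR. Levels are given as CPM, a gene's reads per 1e6 reads of the library total after scaling by TMM, the trimmed mean normalization of edgeR.

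CCs belong to the granulosa lineage and enclose the oocyte. After the ovulatory surge of luteinizing hormone (LH), EGF-like signals and cAMP switch on immediate early genes and then a hyaluronan matrix, and the cells begin to luteinize. They also provide the oocyte with pyruvate, cholesterol and other metabolites. In obesity, lipid overload of the follicle is known to be accompanied by stress and inflammatory signaling.

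The defining markers of cumulus and granulosa cells were expressed in every library, with all 12 passing the filter on low counts and a summed level of 5730 to 24100 CPM in CD and 6830 to 16600 CPM in HFD. Oocyte markers were near 0, with a summed level of at most 2.96 CPM in CD and 2.24 CPM in HFD, and 8 of the 14, among them Zp3 and Bmp15, had 0 reads in all 13 libraries. Total counts were 2257473 to 5729017 in CD and 1330297 to 5463108 in HFD. CD replicates 1 and 2 lay apart. They correlated at 0.985 with each other and at 0.705 to 0.832 with the other 11 libraries, which correlated at 0.863 to 0.961 among themselves. Their 50 most abundant genes held 14.9% and 15.5% of the counts, against 24.3% to 31.7% elsewhere. No pair of replicates was identical. The chi-square statistic per degree of freedom of this pair was 3.26, the smallest of 36 pairs, with 7.71 the next smallest. Whether the 2 libraries share an animal was not tested. They were kept as 2 samples, as labelled, and a fit with their counts summed is given below. Values without these 2 libraries are therefore given beside those of all 13, written after "then" where both stand in parentheses.

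**Figure D1:**
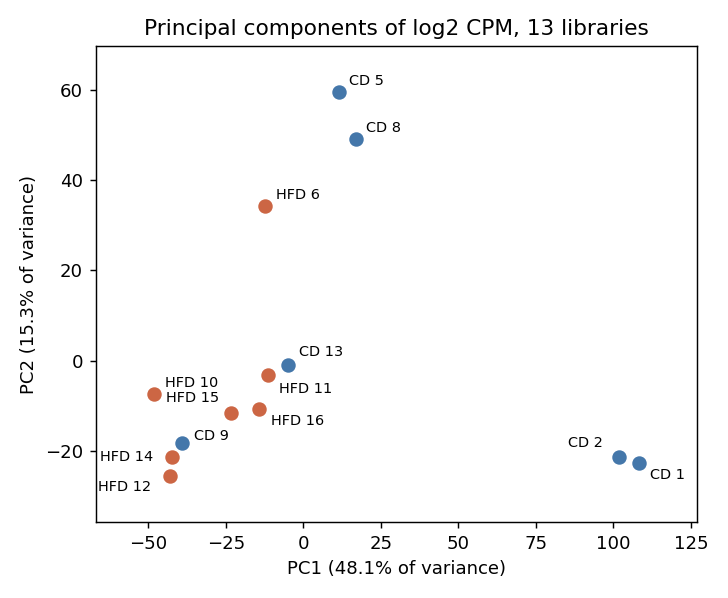
Principal components of log2 CPM of the 13 libraries, with CD in blue and HFD in orange, each point 1 library labelled by its group and replicate. PC1 (48.1% of the variance) set CD replicates 1 and 2 apart from the other 11, and PC2 (15.3%) set CD replicates 5 and 8 and HFD replicate 6 apart.

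Only 3 of 10861 genes tested (0.0276%) had a Benjamini-Hochberg adjusted p under 0.05 by the quasi-likelihood test of edgeR, which gives the adjusted p below unless another tool is named. Cxcr7 and Nr4a1 fell in HFD and Zc3h12c rose. Cxcr7, named Ackr3 in RefSeq, encodes an atypical receptor that removes the chemokine CXCL12 from the cell surface. Nr4a1 encodes an orphan nuclear receptor and is an immediate early gene. Zc3h12c belongs to the Regnase family of CCCH zinc finger proteins, which degrade mRNA. Without CD replicates 1 and 2, 1 of 10998 genes tested (0.00909%), Cxcr7, was called. The smallest adjusted p among genes not called was 0.0623, and 1134 genes were under 0.1. The number of calls depended on single libraries. It was 473 without CD replicate 13, 2222 without CD replicate 9, and between 1 and 3 with any 1 of the other 11 left out. It was 1130 of 12124 (9.32%) by DESeq2 and 31 of 10019 (0.309%) by DESeq2 without CD replicates 1 and 2.

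The promoters of Cxcr7 and Nr4a1 are shown because these genes fell and their RefSeq starts match the gene starts in the deposited table. They are 300-base windows from 250 bases before to 50 after the start (RefSeq, GRCm38.p6, plus strand), chr1:90203730-90204029 for Cxcr7 and chr15:101266596-101266895 for Nr4a1. Capitals mark TGACG or its other-strand form CGTCA, the core of the cAMP response element TGACGTCA, which contains both forms.
Cxcr7: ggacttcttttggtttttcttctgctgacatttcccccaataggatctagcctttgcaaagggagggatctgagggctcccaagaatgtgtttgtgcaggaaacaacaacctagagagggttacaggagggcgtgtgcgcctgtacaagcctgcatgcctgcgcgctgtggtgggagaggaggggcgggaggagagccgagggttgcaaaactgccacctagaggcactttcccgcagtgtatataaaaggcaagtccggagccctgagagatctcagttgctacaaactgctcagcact
Nr4a1: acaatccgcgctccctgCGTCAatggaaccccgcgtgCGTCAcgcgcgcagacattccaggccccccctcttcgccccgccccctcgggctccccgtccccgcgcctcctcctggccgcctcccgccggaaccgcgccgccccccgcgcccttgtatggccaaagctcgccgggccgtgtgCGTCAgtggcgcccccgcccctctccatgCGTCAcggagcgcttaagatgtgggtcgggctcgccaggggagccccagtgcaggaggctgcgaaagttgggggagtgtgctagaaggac

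The Nr4a1 window held 4 copies of the core and the Cxcr7 window 0, and neither held the full element. The core was present in 20.8% of the 32851 windows and the full element in 1.79%. Among the 23 immediate early genes listed, 18 had a window (not Fosl1, Egr1, Egr3, Ier2 and Myc), 11 of these held the core and 2, Dusp1 and Btg2, the full element, against 23% and 2.03% of all genes with a window. These matches describe letters in the windows only. The 2 windows of Zc3h12c did not start where the table places the gene and are not shown.

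Cxcr7 (chromosome 1, 90203980 to 90216751, plus strand) had a lowest, median and highest level of 7.55, 12.6 and 18.5 CPM in CD and of 0.492, 2.21 and 2.61 CPM in HFD. The groups did not overlap, which was true of 114 of the genes tested (1.05%). Its log2 fold change was -2.87 (SE 0.38, adjusted p = 0.00792), from 12.8 ± 3.63 CPM (SD, n = 6) to 1.80 ± 0.869 CPM (SD, n = 7). The HFD libraries held 39 reads in all, against 373 in CD, and 3 reads, the limit that a count of 0 allows at 95% confidence, correspond to 0.559 to 2.53 CPM in a HFD library, which covers counting error only. The call held when each library was left out (adjusted p from 0.00718 to 0.037). With counts thinned to the shallowest library Cxcr7 was not among the genes tested, so the call could not be checked at that depth. Without CD replicates 1 and 2 the log2 fold change was -2.63 (adjusted p = 0.0408). Cxcr4, the signaling receptor of CXCL12, chosen after its value was seen, had a log2 fold change of 0.24 (adjusted p = 0.801), then 0.02.

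Nr4a1 (chromosome 15, 101266846 to 101274792, plus strand) had a lowest, median and highest level of 15.6, 23.9 and 29.7 CPM in CD and of 3.98, 7.86 and 11.0 CPM in HFD. No HFD library reached a CD library. This was a log2 fold change of -1.62 (SE 0.257, adjusted p = 0.0265), from 23.7 ± 5.44 CPM (SD, n = 6) to 7.64 ± 2.24 CPM (SD, n = 7). The size held without CD replicates 1 and 2 (-1.46) but the call did not (adjusted p = 0.164).

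Zc3h12c (chromosome 9, 52111985 to 52168111, minus strand) had a lowest, median and highest level of 20.4, 24.9 and 51.9 CPM in CD and of 59.1, 128 and 161 CPM in HFD. Here too the groups did not overlap, with HFD replicate 6 nearest to CD. The log2 fold change was 1.91 (SE 0.298, adjusted p = 0.0265), from 32.5 ± 14.1 CPM (SD, n = 6) to 121.5 ± 39.8 CPM (SD, n = 7). Without CD replicates 1 and 2 the log2 fold change was 1.75 (adjusted p = 0.164). With each library left out, Zc3h12c kept its call in 4 of 13 fits and Nr4a1 in 3 of 13 (adjusted p up to 0.0949 and 0.0999).

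**Figure D2:**
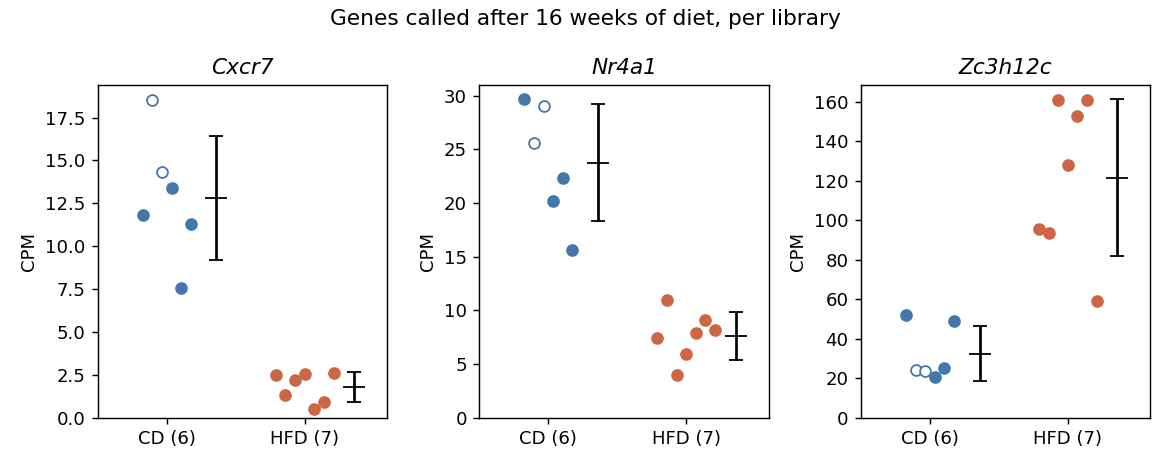
Levels of the 3 called genes in CPM (vertical axes, starting at 0), 1 point per library, with CD replicates 1 and 2 drawn as open circles and the mean ± SD as black bars. Cxcr7 and Nr4a1 in HFD lay under every CD library (at most 2.61 and 11.0 CPM) and Zc3h12c above every one (at least 59.1 CPM).

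DESeq2 called 28 genes in the same direction with and without CD replicates 1 and 2, of which 18 were higher and 10 lower in HFD. They include the 3 above, and the others given here were, apart from Igfbp4 and Lama1, chosen after their values were seen. In 21 of the 28 the groups did not overlap, 9 of them lower, against 114 of all 10861 genes tested in edgeR (1.05%). The 28 were picked by tests on these same values, so this count is a description only. The fits with and without CD replicates 1 and 2 share all other libraries. Higher in HFD were Sorbs2, an actin adaptor (70.9 ± 25.1 CPM in CD and 208 ± 67.9 CPM in HFD), Zfhx3, a zinc finger homeobox factor (31.6 ± 15.8 and 88.9 ± 13.8 CPM), and Cacna2d1, a calcium channel subunit (54.2 ± 15.4 and 116 ± 16.4 CPM). Their log2 fold changes were 1.55, 1.49 and 1.1 with all libraries and 1.57, 1.19 and 1.11 without CD replicates 1 and 2. The splicing factor Mbnl1 (1.48, then 1.25), the decapping helicase Ddx6 (1.1, then 1.03), and Rab14 (1.00, then 0.62) and Gcc2 (0.75, then 0.65), which act in vesicle traffic, were higher too. Lower in HFD were Igfbp4, which binds insulin-like growth factors (16.6 to 70.7 CPM in CD and 7.76 to 12.4 CPM in HFD), the endocytic receptor Lrp1 (146 ± 117 and 32.7 ± 6.85 CPM), the laminin chain Lama1 (179 ± 130 and 55.8 ± 10.9 CPM) and Thbs4, a thrombospondin (102 ± 57.0 and 42.2 ± 5.21 CPM). CD replicates 1 and 2 held the highest CD levels of these 4 genes, and without them the CD means were 20.9 CPM for Igfbp4, 72.2 CPM for Lrp1, 96.0 CPM for Lama1 and 66.4 CPM for Thbs4. The log2 fold changes went from -1.81 to -1.04 for Igfbp4, from -2.17 to -1.11 for Lrp1, from -1.69 to -0.76 for Lama1 and from -1.29 to -0.63 for Thbs4. In edgeR with 13 libraries none of these 11 genes passed (adjusted p from 0.0623 for Sorbs2, Zfhx3, Cacna2d1, Igfbp4 and Lrp1 to 0.101 for Rab14).

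Since 633 distinct genes of the 29 pathway lists were tested and 1, Nr4a1, was called, the lists are described below by members with an unadjusted p under 0.05 in edgeR, and values of a named member are not a call. Over all genes this share was 8.00% higher and 17.3% lower in HFD with 13 libraries, and 5.44% higher and 4.20% lower without CD replicates 1 and 2. Across every gene tested the log2 fold changes had a median of -0.05 and 0.01. In bulk CCs, fewer cells of a kind and less RNA per cell cannot be told apart.

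The GC content of the transcripts moved with the fold change. Its Spearman correlation with the log2 fold change was -0.43 across 10742 genes and -0.34 across 10877 without CD replicates 1 and 2, over genes that share the same libraries. Median GC content was 44.1% in the genes higher in HFD at an unadjusted p under 0.05, 54.1% in those lower and 48.9% in all. With the GC trend of each library removed, Cxcr7 kept its call (adjusted p = 0.0069), while Zc3h12c and Nr4a1, at a GC content of 41.4% and 57.0%, did not (log2 fold change 1.67 and -1.20, adjusted p = 0.0688 and 0.109). In this fit Sorbs2, Mbnl1, Ddx6, Rab14, Cacna2d1 and Gcc2 had log2 fold changes of 1.24, 1.22, 0.92, 0.84, 0.83 and 0.49. Those of Lrp1, Igfbp4, Lama1 and Thbs4 were -1.51, -1.38, -1.32 and -0.94. All of these were smaller in size than with the trend kept, while Zfhx3 was larger (1.66). None passed (adjusted p from 0.109 to 0.173). With the trend removed the median log2 fold change of the list of glycolysis went from -0.40 to -0.17, that of granulosa identity from -0.33 to -0.07 and that of nuclear oxidative phosphorylation from 0.48 to 0.50. Without CD replicates 1 and 2 as well, 484 genes (4.40%) were lower at an unadjusted p under 0.05. Among the lists these included 6 of 24 genes of the unfolded protein response, 4 of 19 immediate early genes and 3 of 17 interferon genes. They also included 3 of 19 LH response and 3 of 24 fatty acid oxidation genes, and at most 2 in any other pathway list.

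**Figure D3:**
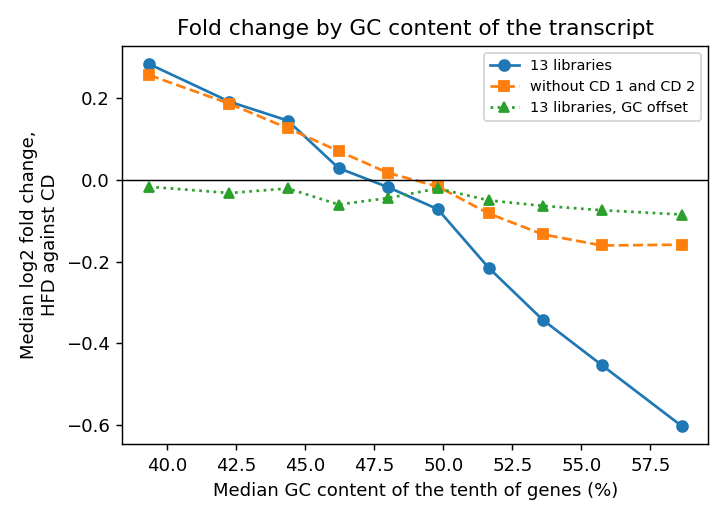
Median log2 fold change of HFD against CD (vertical axis) in 10 equal bins of genes ordered by GC content (horizontal axis, median % of the bin), for all 13 libraries, without CD replicates 1 and 2, and with the GC trend of each library removed. With 13 libraries it ran from 0.28 in the bin of lowest GC to -0.60 in the highest, without CD replicates 1 and 2 from 0.26 to -0.16, and with the trend removed from -0.02 to -0.08.

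Immediate early genes, which follow LH and growth factor signals within minutes, held 1 call, Nr4a1, and mostly negative log2 fold changes. Of 19 tested, 8 were lower and 0 higher at an unadjusted p under 0.05 (42.1%), with a median log2 fold change of -0.60. The fit without CD replicates 1 and 2 gave 5 lower and 0 higher (26.3%), with a median of -0.28. Besides Nr4a1, these 5 were Egr2, Fos, Btg2 and Zfp36, named after their values were seen. Egr2, a zinc finger transcription factor, had a lowest, median and highest level of 22.9, 30.1 and 83.6 CPM in CD and 4.92, 7.04 and 23 CPM in HFD. Fos, a component of the AP-1 factor, had 15.6, 26.1 and 49.0 CPM in CD and 13, 14.4 and 19.4 CPM in HFD. The groups of both genes overlapped, Egr2 through HFD replicate 16 alone. Their log2 fold changes were -2.07 (adjusted p = 0.0654) and -0.90 (adjusted p = 0.0708), and -1.25 and -0.76 without CD replicates 1 and 2. The median GC content of the list was 54.4%, and its median log2 fold change was -0.16 with the GC trend removed and -0.14 with both changes made.

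**Figure D4:**
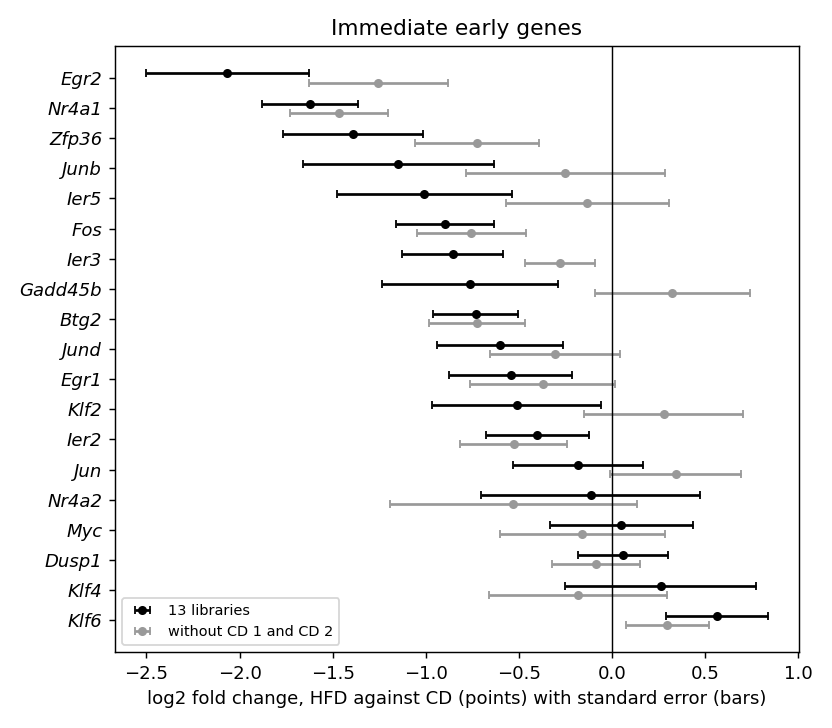
Log2 fold change of HFD against CD (points) with its standard error (bars) for the 19 immediate early genes tested, with all 13 libraries in black and without CD replicates 1 and 2 in grey. Of the 19, 15 lay under 0 in each fit, and Nr4a1, Fos and Btg2 moved little between the fits while Junb, Ier5 and Gadd45b moved towards 0 or, for Gadd45b, to 0.32.

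Among genes of cumulus expansion, which build the hyaluronan matrix, 1 of 13 was higher and 3 were lower at an unadjusted p under 0.05 (median log2 fold change 0.12), and 2 and 2 of 14 without CD replicates 1 and 2 (median 0.03). Ptgs2, the prostaglandin synthase of expansion, had the smallest p (log2 fold change -1.41, adjusted p = 0.0654, and -0.68 without CD replicates 1 and 2). Its levels were 60.4, 135 and 331 CPM in CD and 43.2, 53.7 and 99.7 CPM in HFD (lowest, median and highest), so the groups overlapped. Cd44, the hyaluronan receptor, had a log2 fold change of 1.05 (adjusted p = 0.0780, then 0.86 without CD replicates 1 and 2). For EGF-like ligands and receptors, 2 of 7 were lower, 0 without CD replicates 1 and 2, and the smallest p was that of Erbb2, a receptor subunit (-1.83, then -0.59). Granulosa identity and follicle-stimulating hormone (FSH) response genes were lower in 5 of 18, then 2 of 18 with 1 higher. Hsd17b1, which makes estradiol from estrone, had the smallest p (-1.14, adjusted p = 0.0654, then -0.85), with 40.6, 57.8 and 88.5 CPM in CD and 12.5, 31.9 and 42.2 CPM in HFD. Of LH response and luteinization genes, 5 of 18 were lower and 1 higher, then 1 and 1 of 19. Scarb1, the receptor for high-density lipoprotein, had the smallest p (-1.70, then -0.46), and Prlr, the prolactin receptor, was the gene higher (1.12, adjusted p = 0.0654, then 0.88).

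Among metabolic lists, as among all genes (17.3%, then 4.20%), fewer members were lower without CD replicates 1 and 2. Fatty acid synthesis and desaturation was lower in 6 of 15 members and higher in 0, and in 0 and 0 without these libraries. Its member of smallest p was Acacb, which makes malonyl-CoA (-2.35, then -0.74), and Fasn, the fatty acid synthase, went from -2.17 to -0.11. Glycolysis and glucose uptake was lower in 10 of 22 (45.5%), then in 3 with 1 higher. Slc16a3, a lactate exporter, had the smallest p (-2.53, then -0.19). Of its members only Pfkp, the platelet phosphofructokinase, had groups that did not overlap (186 to 249 CPM in CD and 75.2 to 177 CPM in HFD), and its log2 fold change moved little (-0.69, then -0.64). Cholesterol synthesis and uptake was lower in 5 of 30 and higher in 3, then 0 and 0. Fatty acid oxidation was lower in 4 of 24 and higher in 1, then lower in 3. Cpt2, which releases acyl-CoA in mitochondria, had -0.80, then -0.78, and -0.58 with the GC trend removed from all 13 libraries.

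Within lipid droplets and fatty acid uptake, 5 of 24 were lower and 1 higher, then 3 of 25 and 0. Dgat1, which makes the final bond of triglycerides, kept its size without CD replicates 1 and 2. DESeq2 called it in both fits (adjusted p = 0.00466, then 0.0492). Its levels were 27.9, 54.1 and 83.1 CPM in CD and 19.9, 25.6 and 35.5 CPM in HFD, and only CD replicate 9 lay within the range of HFD. The log2 fold change was -1.07 (standard error 0.233, adjusted p = 0.0654), then -1.06. With the GC trend removed it was -0.70 (edgeR adjusted p = 0.159), and -0.92 with both changes made. The other members lower in both fits were Pnpla2, the triglyceride lipase (-2.13, then -0.64), and Gpam, which starts glycerolipid synthesis (-1.34, then -0.52). Genes of lipid storage and of lipid release were both among them.

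Mitochondrial and ribosomal lists had few members past an unadjusted p of 0.05 with all 13 libraries. Nuclear oxidative phosphorylation had 4 of 74 higher and 3 lower, with a median log2 fold change of 0.48 against -0.05 for all genes, then 0 and 2 with a median of 0.14. Its smallest p was that of Atp5d, an ATP synthase subunit (-0.98, then -0.31). Of mitochondrially encoded genes 1 of 11 was lower, mt-Co1, a subunit of cytochrome c oxidase (-1.001, then -0.26). Without CD replicates 1 and 2, 3 of the 11 were higher (27.3%, against 5.44% of all genes) and 0 lower. The median of this list went from 0.07 to 0.43, against 0.01 for all genes without these libraries, and was 0.18 with the GC trend removed as well. That last fit gave 2 of 11 higher and 1 lower, mt-Co1 (-0.50). Cytosolic ribosomal proteins had 1 of 76 lower, Rpl8 (-0.55, then -0.29), and 0 of 76 without CD replicates 1 and 2.

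Stress lists gave lower values in some members. In the unfolded protein and integrated stress response 5 of 24 were lower and 0 higher, then 4 and 0 (16.7%). Ern1, the IRE1 sensor, had the smallest p (-1.65, then -0.47), and the PERK kinase gene Eif2ak3 and the chaperones Calr and Pdia6 had -0.996, -0.56 and -0.58, then -0.71, -0.60 and -0.77. For heat shock chaperones 2 of 13 were lower and 1 higher, then 0 and 0, with Bag3, a co-chaperone, of smallest p (-1.44, then -0.57). Antioxidant and glutathione genes were higher in 3 of 29 and lower in 2, then 1 and 3. Srxn1, sulfiredoxin, had the smallest p (-0.91, then -0.61).

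The inflammasome genes, part of the study's question on late obesity, were near the limit of detection or did not pass the test. Nlrp3, the inflammasome sensor, had 1 read in the 6 CD libraries and 0 in the 7 HFD libraries, so a change was not detectable at this depth. Casp1 and Il1b, the protease and the cytokine it matures, had 48 and 18 reads in CD and 72 and 5 in HFD (two-sided exact permutation test of log2(CPM + 1), p = 0.944 and 0.225, where the smallest p these groups allow is 0.00117). The difference without CD replicates 1 and 2 went from 0.05 to -0.60 for Casp1 and from -0.45 to -0.62 for Il1b (exact permutation p = 0.4 and 0.155, smallest possible 0.00606). Casp1 passed the filter in the edgeR fit without these libraries, where its log2 fold change was -0.05 (adjusted p = 0.985). Il18 had a log2 fold change of 0.32 and the adaptor Pycard of 0.63 (adjusted p = 0.517 and 0.177), then 0.01 and 0.44. Of the 6 members of the NLRP3 list tested, 2 were higher and 2 lower at an unadjusted p under 0.05, then 2 and 1 of 7. Gsdmd, the pore-forming gasdermin, had the smallest p, with 10.8, 16.1 and 27.9 CPM in CD and 3.98, 7.45 and 11.4 CPM in HFD (log2 fold change -1.24, adjusted p = 0.0654, then -1.18).

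Among chemokines, cytokines and complement, 3 of 11 were higher and 1 lower, then 3 of 12 and 0. The 3 were Ccl7, a monocyte chemokine, C3ar1, the receptor for complement C3a, and Cxcl1, a neutrophil chemokine, with log2 fold changes of 2.91, 1.40 and 0.90 (adjusted p = 0.0664, 0.0725 and 0.142), then 2.44, 1.67 and 0.99. DESeq2 called Ccl7 and C3ar1 with 13 libraries (adjusted p = 0.0105 and 0.0193) but not without CD replicates 1 and 2 (adjusted p = 0.359 and 0.125). Ccl7 had a lowest, median and highest level of 0, 0.757 and 6.79 CPM in CD and 3.38, 5.75 and 47.9 CPM in HFD. HFD replicate 15 was far above the rest of its group and CD replicate 9 lay within HFD. C3ar1 had 1.56, 3.40 and 4.91 CPM in CD and 1.69, 8.38 and 15.5 CPM in HFD, with the groups overlapping. Rela, the NF-kappaB subunit, had the smallest p of the list (-1.50, then -0.52). Macrophage and neutrophil markers were given by 14 of 16 members tested, 1 higher and 0 lower at an unadjusted p under 0.05 in both fits (median log2 fold change 0.66, then 0.39). Their summed level was 73.1 to 488 CPM in CD and 139 to 692 CPM in HFD, with none of the 16 at 0 reads throughout, and its part in the values of Ccl7 and C3ar1 was not tested. Lyz2, Cd68 and Ptprc, their most abundant markers, had log2 fold changes of 0.61, 0.34 and 0.81 (adjusted p from 0.437 to 0.603), then 0.17, -0.04 and 0.37.

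Interferon response and MHC class I genes were lower in 6 of 16 and higher in 0 (37.5%), then 5 of 17 and 0 (29.4%), with medians of -0.44 and -0.28, and of -0.17 with the GC trend removed. With that trend and CD replicates 1 and 2 removed, 3 of the 17 were lower and the median was -0.22. Tap1, the peptide transporter, had the smallest p (-1.11, adjusted p = 0.0658, then -0.74), with 7.29, 11.6 and 17.9 CPM in CD and 4.04, 5.75 and 9.24 CPM in HFD. The antiviral gene Oasl2 kept its size (-0.79, then -0.72), with 35.5 to 49 CPM in CD and 14.6 to 39.7 CPM in HFD. EdgeR called none of the 16 tested of 22 members, and DESeq2 called 3 with 13 libraries and 0 without CD replicates 1 and 2.

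Of the leptin and JAK-STAT list, 2 of 16 were higher and 3 lower, then 0 and 0. Stat5b had the smallest p (-0.94, then -0.14). The leptin receptor gene Lepr ranged from 6.85 to 32.6 CPM in CD and from 9.09 to 21.1 CPM in HFD (log2 fold change -0.55, adjusted p = 0.264, then -0.28). Stat3 and Stat5a, which relay cytokine signals, had log2 fold changes of 0.37 and 0.73 (adjusted p = 0.387 and 0.372), then 0.42 and 0.45. Socs3, the feedback inhibitor of leptin signaling, had 116 reads in CD and 27 in HFD, with reads in 6 of 6 and 4 of 7 libraries (difference of the mean log2(CPM + 1) -1.14, two-sided exact permutation test, unadjusted p = 0.0472, where 11 named genes were compared in this way). Its highest levels were those of CD replicates 1 and 2 (6.91 and 6.57 CPM), and without them the difference was -0.62 (exact permutation p = 0.233), with 33 reads left in CD. In the insulin, PI3K, mTOR and FOXO list 8 of 24 were lower and 2 higher, then 2 and 1. Igfbp4 had the smallest p (log2 fold change -1.81, adjusted p = 0.0623, then -1.04), with 16.6, 23.8 and 70.7 CPM in CD and 7.76, 9.83 and 12.4 CPM in HFD and no overlap.

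In the extracellular matrix list 10 of 25 were lower and 2 higher, then 3 and 2. Lama1 had the smallest p (-1.69, adjusted p = 0.0654, then -0.76), with 83.3 to 374 CPM in CD and 39.8 to 70.8 CPM in HFD. The fibronectin gene Fn1 (-1.86, then -0.82) and the laminin receptor chain Itga6 (0.89, then 0.81) had groups without overlap as well. Oocyte signal receptors and SMADs had 2 of 18 higher and 3 lower, then 3 and 0 (16.7% higher), with Smad3 of smallest p (-1.23, then -0.40) and Id2 and Smad4 among those higher (1.43 and 0.55, then 1.00 and 0.49). Cell cycle and DNA replication had 2 of 25 higher and 2 lower, then 2 and 2 of 26. Mcm7, of the replicative helicase, had the smallest p (-0.90, then -0.53), and the thymidylate synthase gene Tyms was higher without overlap (0.70, then 0.45, with 29.2 to 71.4 CPM in CD and 76.2 to 98.4 CPM in HFD).

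The remaining lists were BCL2 family and apoptosis (1 of 17 higher and 0 lower, then 2 and 0), Wnt and Notch signaling (0 of 15 higher and 3 lower, then 1 of 16 and 0), circadian clock (0 of 11 and 4, then 0 and 1), hypoxia response (0 of 16 and 1, then 0 and 1) and lysosome and autophagy (0 of 21 and 6, then 0 and 1). In the last 4 of these the members of smallest p were the Notch target Heyl (-1.70, then -0.72), the clock repressor Per1 (-1.95, then -0.75), the collagen hydroxylase P4ha2 (-0.74, then -0.84) and the lysosomal channel Mcoln1 (-0.61, then -0.52). None of these passed the adjusted test.

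**Figure D5:**
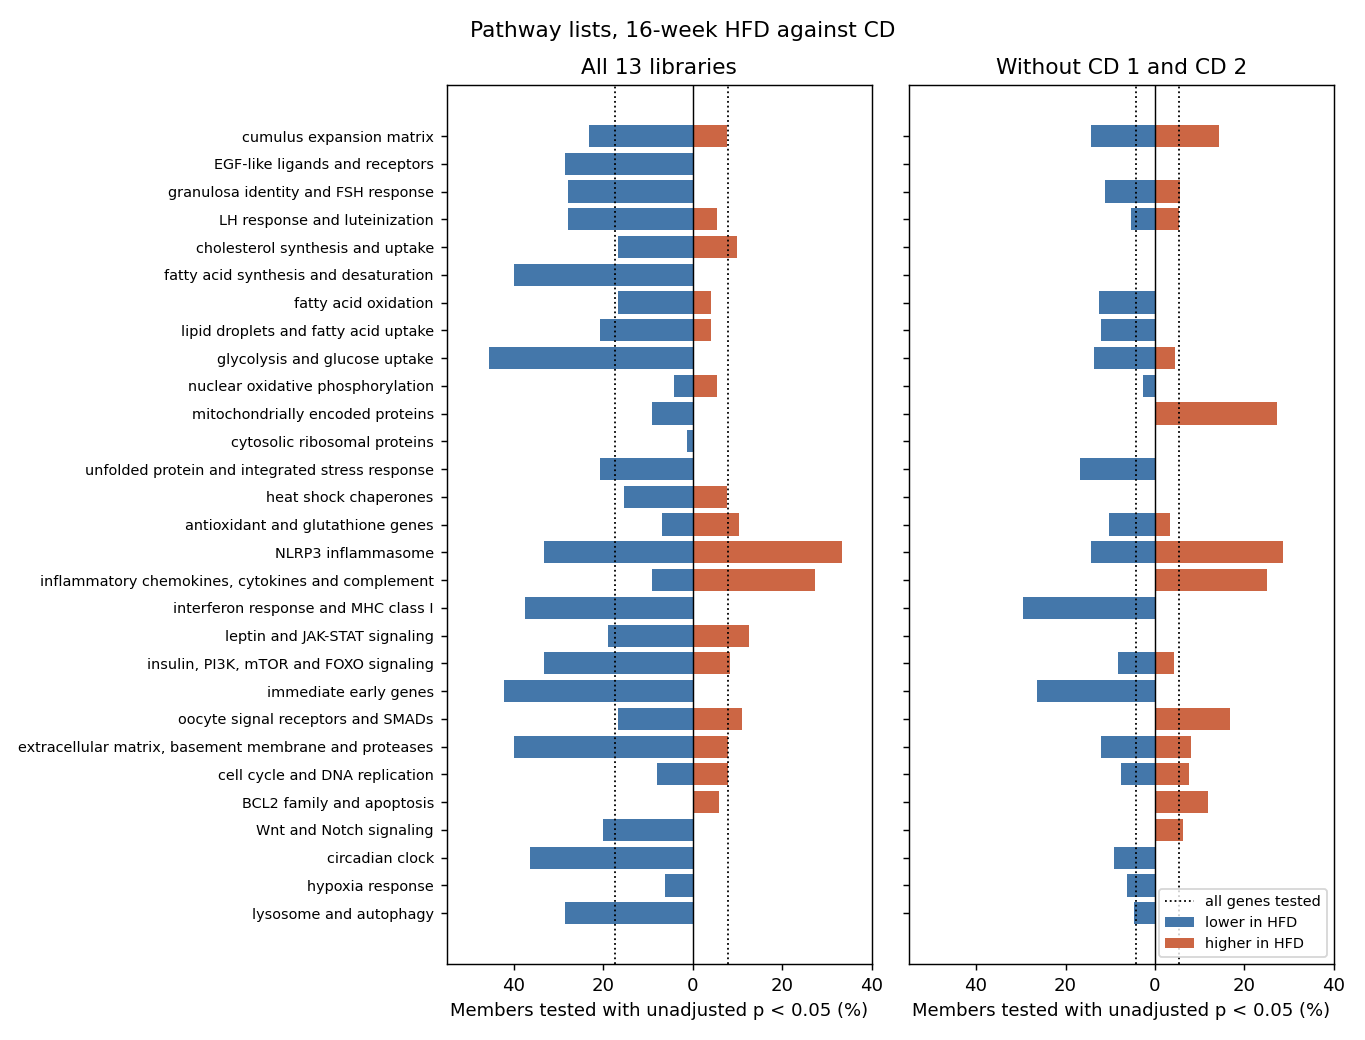
Percent of the tested members of each pathway list with an unadjusted p under 0.05 (horizontal axis), lower in HFD to the left in blue and higher to the right in orange, with all 13 libraries (left panel) and without CD replicates 1 and 2 (right panel). Dotted lines give the share over all genes tested (17.3% lower and 8.00% higher, then 4.20% and 5.44%), and glycolysis, for example, went from 45.5% lower to 13.6% while interferon genes went from 37.5% to 29.4%.

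Markers of other cells were checked because a few of them can enter a pool of this size. None of the markers was called. Red blood cell genes Hba-a1 and Hba-a2 had log2 fold changes of 2.56 and 2.87 (adjusted p = 0.178 and 0.149), then 2.19 and 2.59, with summed levels of the list of 3.58 to 12.5 CPM in CD and 0 to 172 CPM in HFD. The oviduct glycoprotein gene Ovgp1 had 1.89 (adjusted p = 0.152), then 1.54. HFD replicate 10 held the highest level of all these genes, 92.5 CPM of Hba-a1, 75.7 CPM of Hba-a2 and 514 CPM of Ovgp1. Oviduct epithelium summed to 171 to 354 CPM in CD and 176 to 635 CPM in HFD, with Krt8 and Krt18 at -0.26 and -0.37, then -0.27 and -0.49. Theca and stroma summed to 13.5 to 135 CPM and 34.7 to 146 CPM, with the androgen enzyme Cyp17a1 and Insl3 at 0 reads in all libraries. Nr2f2, the only 1 of the 12 members tested, made up most of the highest sums. It reached 130 CPM in CD and 142 CPM in HFD (log2 fold change 0.95, then 0.54). Endothelium summed to 11.1 to 25.9 CPM and 9.69 to 57.5 CPM, with Tek, Tie1 and Flt1 at 0 reads. Cdh5 alone reached 19.6 CPM in CD and 52.6 CPM in HFD. Cdh5 and Pecam1 had log2 fold changes of 0.67 and 0.26, then 0.71 and 0.52. Without HFD replicate 10, Cxcr7 kept its call. Nr4a1 and Zc3h12c did not (adjusted p = 0.0725 and 0.06), while their log2 fold changes were -1.62 and 1.95. The loss was not particular to this library, since these 2 genes kept their calls in only 3 and 4 of the 13 fits with a library left out. The part of these other cells in any result was not tested.

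Whether the effect of HFD differed between 16 weeks and 4 weeks was tested as an interaction over 23 libraries, with 5 CD and 5 HFD libraries at 4 weeks. Of 12235 genes, 448 (3.66%) were called, 213 with a more positive and 235 with a more negative effect at 16 weeks, and 89 were called without CD replicates 1 and 2. Cxcr7 was among them, with a log2 fold change of -0.42 at 4 weeks and a difference between the times of -2.35 (standard error 0.539, adjusted p = 0.0248). Its adjusted p was 0.0581 without CD replicates 1 and 2. For Nr4a1 and Zc3h12c the differences were -0.88 and 1.46 (adjusted p = 0.143 and 0.0682), with log2 fold changes of -0.63 and 0.52 at 4 weeks. On a scale common to all 34 libraries, Cxcr7 ranged from 2.85 to 7.34 CPM in 4-week CD, under the 8.60 to 19.8 CPM of 16-week CD. Zfhx3, chosen after its values were seen, had a log2 fold change of -1.02 at 4 weeks and a difference between the times of 2.57 (SE 0.454, adjusted p = 0.00988), which passed without CD replicates 1 and 2 too (adjusted p = 0.0142). Age and time on diet cannot be told apart between the groups.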

How the data were processed

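RNA-seq of CCs was analysed in 7 HFD and 6 CD libraries of the 16-week protocol, with 10 libraries at 4 weeks for the interaction. The authors deposited raw read counts per gene, whole numbers without normalization, in 1 table of 25965 entries with GRCm38 coordinates. The submitters' processing notes name Trim Galore 0.4.2 and HISAT2 2.0.5, and the counting program is not given in the sources used here. Libraries were not stranded, so a gene and its antisense partner cannot be told apart. The study states that about 50 CCs were taken per animal, and the labels do not say that libraries of a group share an animal. The p-values measure the spread between these libraries.

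The quasi-likelihood F-test of edgeR 4.0.16 (robust, two-sided, TMM scaling, R 4.3.3) was run on genes passing filterByExpr, at a Benjamini-Hochberg adjusted p of 0.05. The standard error was derived from the F statistic. Alternatives were DESeq2 1.42.0, limma 3.58.1 voom with quality weights, RLE, other filters, a fold threshold, thinned counts, a depth covariate, all 34 libraries, and each library left out. Added after the data were seen were fits without CD replicates 5 and 8 and HFD replicate 6, with CD replicates 1 and 2 summed, and with a GC offset (lowess of span 0.3 per library, longest GENCODE M21 transcript, 98.9% of genes matched). Fits were tested on simulated data.

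The members and gene lists were chosen with earlier results of these data known. Genes named were the 12 largest rises and falls among called genes with a mean of at least 10 CPM and no overlap, the member of smallest p of each list without a call (up to 4 called members otherwise), inflammasome, leptin and chemokine genes, and up to 3 markers per cell type; values of some of these genes are not reported here. Cxcr7, under 10 CPM, and the other members named were chosen after their values were seen. A list gene absent under its current symbol was sought through RefSeq synonyms, and Hbb-bs and Hbb-bt were not found. Genes under the filter were compared by an exact permutation test on log2(CPM + 1).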

Additional observations from a re-analysis of the deposited data

Results flagged for a closer look

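For the named genes, each group of 6 or 7 libraries was examined by Dixon's test on CPM for 1 library far from the rest. For normally distributed values chance alone meets it in about 1 in 20, a rate not checked for CPM. The test seeks a single library, so it can miss CD replicates 1 and 2 where both lie apart. In 186 groups examined, 13 such libraries were found. In HFD replicate 10 these were mt-Co1 at 2330 CPM (the nearest library 1510), Ptprc at 79.1 (29.5), Dcn at 27.9 (4.18), Hba-a1 at 92.5 (20.2), Hba-a2 at 75.7 (12.3) and Ovgp1 at 514 (90.2). Others were Ccl7 at 47.9 CPM in HFD replicate 15 (13.2) and 6.79 in CD replicate 9 (1.75), Nr2f2 at 130 CPM in CD replicate 9 (46.3), Rela at 24.6 CPM in HFD replicate 11 (13.4), Ier5 at 11 CPM in HFD replicate 14 (5.96), Gdf9 at 2.09 CPM in HFD replicate 16 (0.88), and Nlrp3 at 0.126 CPM, which is 1 read, in CD replicate 2 (0).

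The effect of HFD differed between 16 and 4 weeks at an adjusted p under 0.05 (edgeR, interaction) for 15 of 86 named genes, against 448 of 12235 genes (3.66%) in all. Of the 15, 4 were named by rule and the others chosen after their 16-week values were seen, so the count is a description only. The log2 difference was more negative at 16 weeks for Cxcr7 (-2.35), Pnpla2 (-2.70), Scarb1 (-2.34), Gpam (-2.09), Heyl (-2.02), Hsd17b1 (-1.74), Eif2ak3 (-1.74), Thbs4 (-1.64) and Igfbp4 (-1.55). It was more positive for Zfhx3 (2.57), Ddx6 (2.22), Prlr (1.81), Sorbs2 (1.68), Cacna2d1 (1.36) and Itga6 (1.31). Without CD replicates 1 and 2, Zfhx3 alone of the 15 passed (adjusted p = 0.0142), and the next was Cxcr7 (0.0581).

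The 3 low weight gainers on HFD, which entered no test, had 1.21, 2.60 and 3.30 CPM of Cxcr7 (lowest, median and highest, scaled over 34 libraries), under all 16-week CD libraries (8.60 to 19.8 CPM). Nr4a1 was at 15.4, 21.0 and 30.5 CPM in them, against 17.1 to 33.1 in CD and 4.39 to 12.3 in HFD. Zc3h12c was at 30.0, 48.3 and 63.8 CPM, against 23.1 to 58.0 in CD and 66.2 to 179 in HFD.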

How the results depend on the processing

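No paired analysis was possible because the CD and HFD libraries of 16 weeks share no replicate number. RLE scaling, a mean of at least 5 CPM and a log2 fold change of at least 1 left the count of called genes at 3. The count was 1130 (287 higher, 843 lower) by DESeq2, 5 (3 higher) by voom, 13 (4 and 9) with no filter, 1 (0 lower) with thinned counts, 1258 (122 and 1136) with all 34 libraries and 251 (16 and 235) without CD replicates 5 and 8 and HFD replicate 6. It was 1 (0 and 1) with log10 total count as a covariate, without CD replicates 1 and 2, with these summed, with the GC offset, and with the GC offset without both. With each library left out it ran from 1 to 2222 (0 to 822 higher, 1 to 1400 lower). The cause was not tested. Called pathway list genes (1) numbered 78, 2, 0, 65 and 22 by DESeq2, with no filter, thinned, with 34 libraries and without those 3 libraries, 0 with the covariate, the GC offsets, and CD replicates 1 and 2 left out or summed, and 0 to 128 with each library left out. Genes named by rule (2 called) numbered 28 by DESeq2, 1 thinned, 23 with 34 libraries, 10 without those 3 libraries, 0 in the same settings as the lists, and 0 to 31 with each library left out. Called markers (0) ran from 0 to 1. DESeq2 called 31 without CD replicates 1 and 2. The interaction (448) gave 1160 by DESeq2, 2289 by voom, 157 with 34 libraries, 89 without CD replicates 1 and 2, and 69 to 1685 with each library left out. Genes under the filter with p under 0.05 went from 1 to 2 at a pseudocount of 0.1 and to 0 without CD replicates 1 and 2.

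Signs turned in genes not called. By voom the log2 fold change was -0.169 for Lyz2, -0.253 for Ptprc, -0.857 for Hba-a1 and -0.496 for Hba-a2. Without CD replicates 1 and 2 it was -0.0393 for Cd68 and 0.324 for Gadd45b. With the GC offset it was 0.12 for Krt8, and with both changes -0.0755 for Il18, -0.0323 for Cxcr4, 0.467 for Gadd45b and 0.0499 for Fasn. Counts of 3 reads, 0.379 to 2.53 CPM per library, limit the low genes.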
